A study of Mus musculus with 6 samples.

Results

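Type X collagen and the genes of cartilage mineralization were followed between the articular and the mature zone of the mouse mandibular condyle, the cartilage-covered head of the lower jaw in the jaw joint. The 10 genes were chosen by name and role, not by their values, though with earlier results of these data known. They are Col10a1, Alpl, Enpp1, Ank, Phospho1, Slc20a1, Slc20a2, Mgp, Ibsp and Spp1. All 10 of them had a row among the 22609 gene symbols of the count table, and all 10 were among the 13119 genes that could be tested, which reached 10 counts in 2 or more libraries. Their reads made up 0.0829% to 0.162% of a library.

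Cartilage mineralizes when calcium and phosphate crystals form in matrix vesicles and spread along collagen. Pyrophosphate, made from ATP that cells export, blocks crystal growth, and tissue-nonspecific alkaline phosphatase removes it while releasing phosphate. Chondrocytes that enlarge at the end of their life, the hypertrophic chondrocytes, secrete type X collagen, and acidic or vitamin K-dependent matrix proteins then promote or hold back the mineral.

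Cells of the 2 zones were picked by their morphology and cut out by laser from condyles of CD-1 mice at postnatal day 7, with no genotype or treatment that differed between groups. The articular zone was represented by replicates 2, 3 and 4 (n = 3) and the mature zone by replicates 2 and 3 (n = 2), each a pool of 25 to 30 sections. Mature zone replicate 4 was excluded by the authors for poor mapping and was not analysed here, and the deeper hypertrophic zone, where type X collagen is classically found, was not analysed here either. The labels call the replicates independent, but how many animals were pooled is not stated in the labels or the methods used here.

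The libraries held 15449883 to 18884685 counts each. The zones could be told from each other by the chondrocyte markers Col2a1, Acan, Sox9, Hapln1, Matn1 and Col9a1. Their summed level was 1597 to 2808 CPM in the articular zone, against 21068 and 34723 CPM in the mature zone, and Matn1 had no count in any articular zone library (CPM are counts scaled to library size after TMM normalization, which adjusts for library composition). Prg4, the lubricin gene of superficial joint cells, was low in both zones, with 32, 11 and 57 counts against 11 and 0. Muscle genes set both replicate 2 libraries apart: the 6 skeletal muscle markers summed to 1048 CPM in articular and 883 CPM in mature zone replicate 2, against 15.7 to 66.0 CPM in the other 3 libraries. In such bulk libraries, fewer cells of a type and less RNA per cell cannot be told apart.

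Of the 10 genes, only Mgp passed edgeR's quasi-likelihood test of articular against mature zone (Benjamini-Hochberg adjusted p under 0.05), and it was lower in the articular zone. None passed in the higher direction. Over all 13119 genes, 393 passed, or 3.00%, of which 150 (1.14%) were higher and 243 (1.85%) lower in the articular zone. At an unadjusted p under 0.05, Col10a1, Ank and Mgp were found in edgeR, 3 of the 10, where 2634 of all genes (20.1%) were. Counting genes whose zones did not overlap in CPM gave 4 of the 10, against 5074 of all genes (38.7%). Ank alone was separated as higher, a pattern of 21.1% of all genes, and Col10a1, Phospho1 and Mgp as lower, a pattern of 17.6%. The median log2 fold change (articular over mature) of the 10 genes was 0.08 and that of all genes tested was 0.07.

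**Figure D1:**
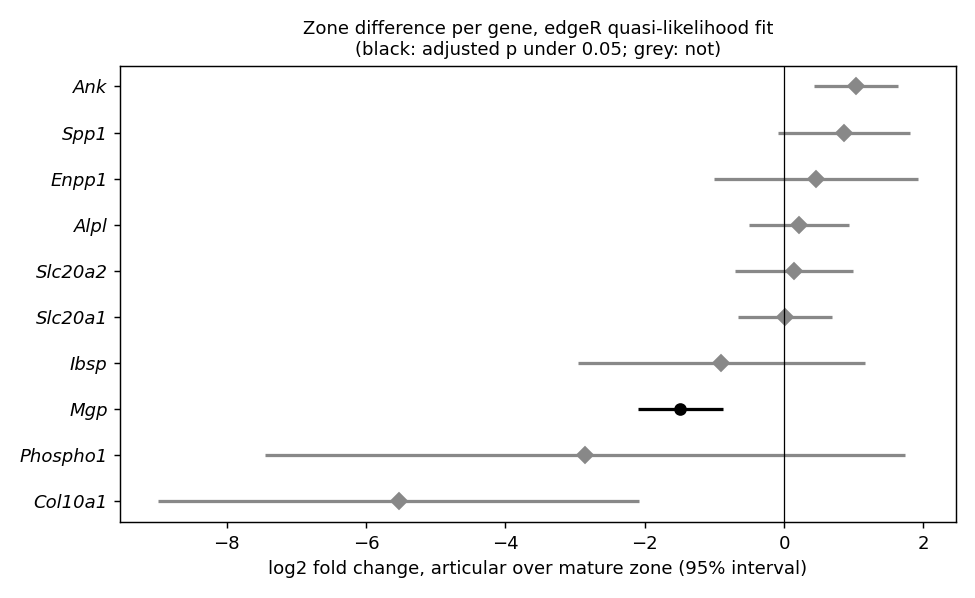
Fitted log2 fold change of articular over mature zone for each of the 10 genes, with its 95% interval as a horizontal line (edgeR, n = 3 articular and n = 2 mature zone libraries). Mgp, drawn in black at -1.49, is the only gene past an adjusted p of 0.05, and the intervals of Phospho1 and Col10a1 are the widest.

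Col10a1 encodes the chain of type X collagen (GRCm38, chr10:34389981-34397085, forward strand). It had 1, 5 and 11 counts in articular zone replicates 2, 3 and 4, and 27 and 387 counts in mature zone replicates 2 and 3. These were 0.0577, 0.316 and 0.553 CPM against 1.77 and 27.6 CPM. Every articular zone library was below both mature zone libraries, and the mature zone libraries were far from each other, with most of the signal in replicate 3. The fitted log2 fold change was -5.53 (SE 1.497, 95% interval -8.98 to -2.08, edgeR adjusted p = 0.0975), which did not pass. The size rested on 1 library: without mature zone replicate 3 the log2 fold change was -2.49 (adjusted p = 0.586), and without mature zone replicate 2 it was -6.43 and passed (adjusted p = 0.0142). Over all alternatives the adjusted p ranged from 0.00151, in DESeq2, to 0.586. In FPKM, reads scaled by gene length and depth, the gene was listed at the table's lowest value of 0.1 in the 3 articular zone libraries and at 0.127 and 2.05 in the mature zone, and limma on log2(FPKM + 1) with no filter gave a difference of -0.75.

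The bases just before the start of Col10a1 are shown because it had the largest fitted difference of the 10 genes. They are those of the RefSeq promoter table (GRCm38.p6), 5′ to 3′ on the gene's strand, with a match to TATAAA in capitals, 32 bases before the start:
Col10a1, chr10:34389731-34389980: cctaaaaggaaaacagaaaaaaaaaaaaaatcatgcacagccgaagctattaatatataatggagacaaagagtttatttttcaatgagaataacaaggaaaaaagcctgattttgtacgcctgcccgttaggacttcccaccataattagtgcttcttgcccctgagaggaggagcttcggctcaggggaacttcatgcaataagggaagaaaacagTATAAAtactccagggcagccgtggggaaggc
Windows of 250 bases before to 50 after a RefSeq start were searched on both strands for TATAAA and for TGTGGT, the core motif of RUNX factors. Such windows existed for 8 of the 10 genes, 11 windows in all, and none was given for Mgp and Slc20a2. TATAAA was in 5 of the 11 and in 13.6% of all 32851 windows, and TGTGGT was in 3 of the 11 and in 16.8% of all windows. The window of Col10a1 held no TGTGGT. A match describes letters only.

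**Figure D2:**
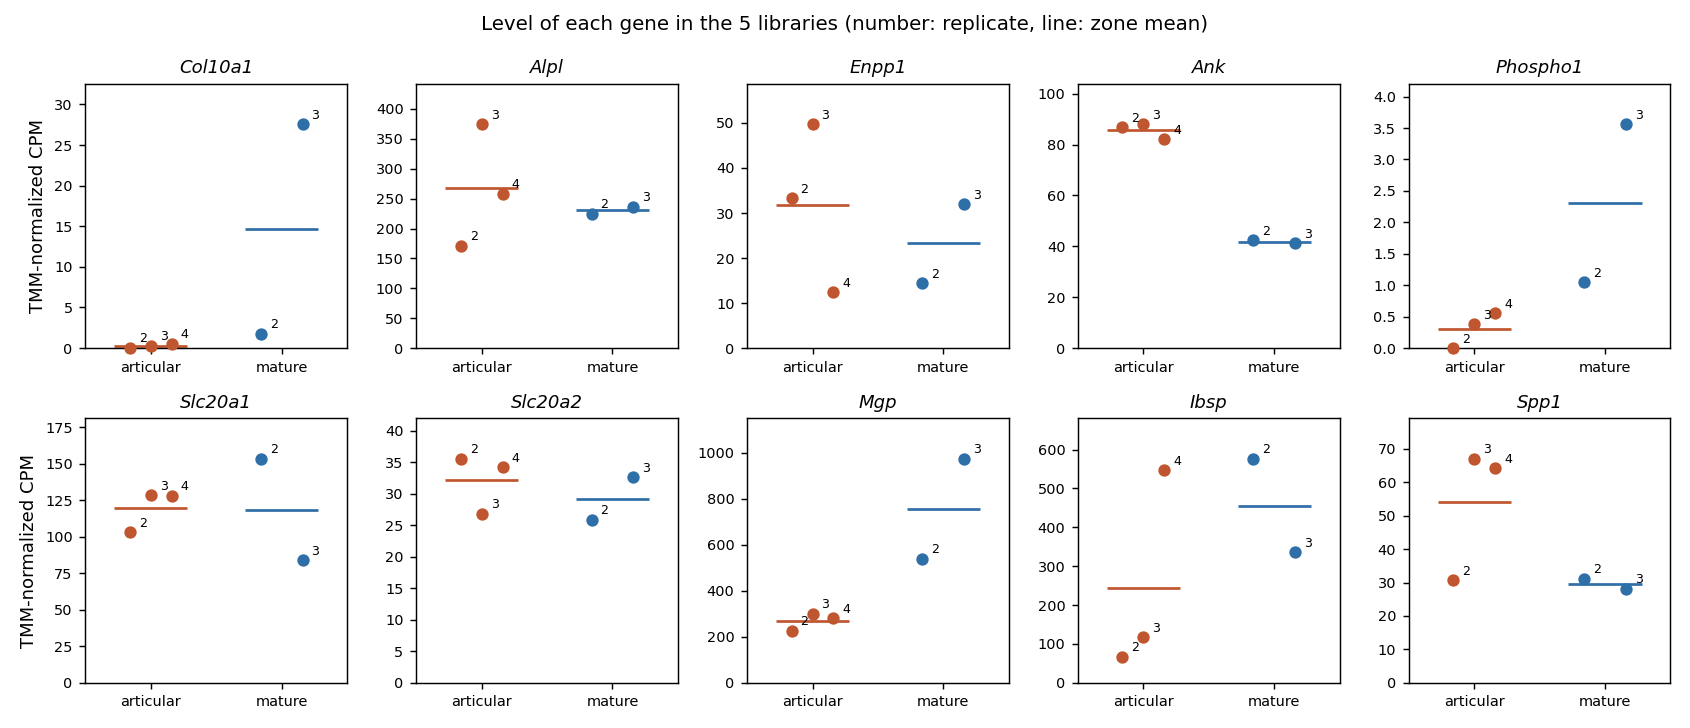
TMM-normalized CPM of each of the 10 genes (vertical axes, each from 0 and with its own range) in the 3 articular and 2 mature zone libraries. Points are libraries, numbers are replicates and lines are zone means: Mgp, Phospho1 and Col10a1 sit lower in all 3 articular zone libraries than in both mature zone libraries, Ank sits higher, and articular zone replicate 4 of Ibsp lies among the mature zone points.

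Among the genes that control pyrophosphate, none passed the test. The zones did not overlap for the exporter gene Ank and overlapped for the enzyme genes Enpp1 and Alpl. Ank, the gene (also called Ankh) of the membrane protein through which ATP and pyrophosphate leave the cell, lies at chr15:27466677-27594909 on the forward strand. Its levels were 86.7, 88.1 and 82.1 CPM in the articular zone, against 42.4 and 41.3 CPM in the mature zone, from 579 to 1631 counts per library. On the log2 CPM scale Ank had the smallest range of the 10 genes within each zone, and the articular zone libraries were all near the same level above both mature zone libraries. The log2 fold change was 1.03 (SE 0.26, 95% interval 0.43 to 1.63), and with an edgeR adjusted p of 0.0817 it did not pass. It lay between 1.01 and 1.26 under every alternative tried, and its adjusted p ranged from 0.00201 to 0.234, with DESeq2 alone calling it.

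Enpp1 encodes the ectoenzyme that makes pyrophosphate from ATP (chr10:24637914-24712159, reverse strand). It was at 33.3, 49.8 and 12.5 CPM in the articular zone, against 14.5 and 32.0 CPM in the mature zone. The zones overlapped, with the lowest value of all in articular zone replicate 4 and the highest in articular zone replicate 3. A log2 fold change of 0.45 was fitted (SE 0.63, 95% interval -1.01 to 1.92, edgeR adjusted p = 0.772), so that differences of either sign and of more than 1 log2 unit lie within the interval. Without articular zone replicate 3 or without mature zone replicate 2 the difference was near 0 (-0.00876 and -0.00861).

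Alpl, the gene of tissue-nonspecific alkaline phosphatase (chr4:137741733-137796384, reverse strand), was abundant in both zones. It had 171, 375 and 258 CPM in the articular zone, against 225 and 236 CPM in the mature zone. The mature zone libraries were close to each other and lay inside the articular zone range. The log2 fold change was 0.22 (SE 0.31, 95% interval -0.50 to 0.93, edgeR adjusted p = 0.779), and without articular zone replicate 3 it was -0.089.

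Set per library as log2 ratios of FPKM + 0.1, Alpl exceeded Enpp1 by 3.31, 3.77 and 5.38 in the articular zone and by 4.88 and 3.71 in the mature zone. The log2 ratio of Enpp1 to Ank was -1.05, -0.53 and -2.53 in the articular zone, against -1.19 and -0.04 in the mature zone. Both ratios overlapped between zones. Neither was tested, since the pairs describe balance within a library.

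Phospho1, the phosphatase that releases phosphate from phosphocholine inside matrix vesicles (chr11:95824499-95832140, forward strand), gave different pictures in counts and in FPKM. It gave 0, 6 and 11 counts in the articular zone, against 16 and 50 counts in the mature zone. In CPM these were 0, 0.379 and 0.553 against 1.05 and 3.56, with no overlap between zones. The log2 fold change of -2.86 (SE 1.99, 95% interval -7.45 to 1.73, edgeR adjusted p = 0.485) did not pass, and without mature zone replicate 3 it was -1.73. In FPKM the gene was at 0.184, 0.913 and 0.618 in the articular zone, against 6.60 and 5.95 in the mature zone. Both mature zone libraries were thus at nearly the same FPKM, although their counts differed. With limma on log2(FPKM + 1) the difference was -2.24 and passed (adjusted p = 0.0166), as it did on log2(FPKM + 0.1) at -3.43 (adjusted p = 0.0424), both without the genes whose mean FPKM was under 1. With no such filter the adjusted p was 0.103, and over all alternatives it ranged from 0.0166 to 0.770.

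In the GENCODE annotation 89.6% of the exon bases of Phospho1 are shared with Zfp652 on the same strand, and 84.2% lie opposite exons of Abi3. The change from counts to FPKM between mature zone replicates 2 and 3 differed by 1.54 log2 units, larger in size than that of 96.3% of 9572 genes, and for the 8 other genes that could be compared it was at most 0.16 in size. Whether reads of the overlapping genes enter either value was not tested, so the level of Phospho1 is uncertain.

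**Figure D3:**
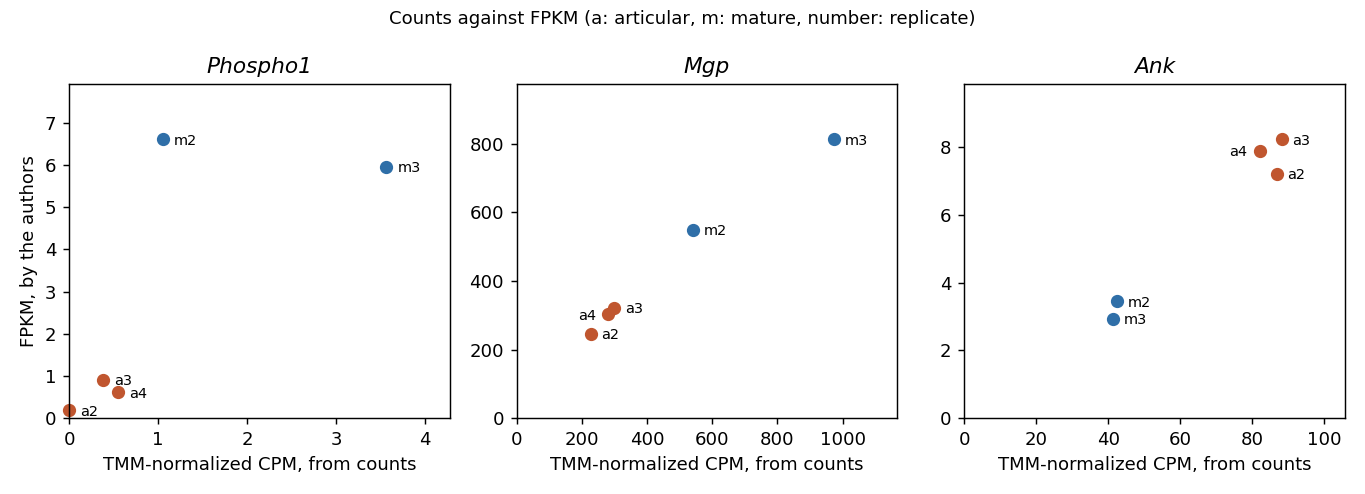
FPKM as deposited by the authors (vertical axes) against TMM-normalized CPM from the counts (horizontal axes) for Phospho1, Mgp and Ank, one point per library (a, articular; m, mature). For each gene the 2 measures order the zones alike. For Phospho1 the mature zone replicates change order: replicate 2 is at 1.05 CPM and 6.60 FPKM, and replicate 3 at 3.56 CPM and 5.95 FPKM.

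The sodium-dependent phosphate importers did not separate the zones. Slc20a1 (PiT-1, chr2:129198764-129211616, forward strand) was at 103, 129 and 128 CPM in the articular zone, against 154 and 83.8 CPM in the mature zone. The mature zone libraries lay on both sides of the articular zone. The fitted log2 fold change was 0.02 (SE 0.29, 95% interval -0.66 to 0.69, edgeR adjusted p = 0.985), and without mature zone replicate 3 it was -0.36. Antisense genes lie opposite 13.1% of its exon bases, and how the counting treated strand is not stated.

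Slc20a2 (PiT-2, chr8:22476788-22569612, forward strand) was at 35.6, 26.9 and 34.2 CPM in the articular zone, against 25.9 and 32.7 CPM in the mature zone. These ranges overlapped, and the log2 fold change was 0.14 (SE 0.37, 95% interval -0.71 to 0.99, edgeR adjusted p = 0.894). The log2 ratio of Slc20a1 to Slc20a2 in FPKM + 0.1 was 1.58, 2.24 and 1.86 in the articular zone, against 2.62 and 1.29 in the mature zone, so that the order of the transporters was the same in all 5 libraries.

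Mgp encodes matrix Gla protein, a small vitamin K-dependent inhibitor of calcification made by chondrocytes and vascular smooth muscle cells (chr6:136872435-136875823, reverse strand). It gave 3937, 4735 and 5593 counts in the articular zone, against 8212 and 13650 counts in the mature zone. In CPM it was at 227, 299 and 281 against 540 and 973. The articular zone libraries were close together, and both mature zone libraries were above them. Mgp was 2.81-fold lower in the articular zone (log2 fold change -1.49, SE 0.26, 95% interval -2.10 to -0.88, edgeR adjusted p = 0.0288). The call needed nearly all libraries: it was lost without articular zone replicate 2 (-1.38, adjusted p = 0.115), articular zone replicate 3 (-1.56, adjusted p = 0.101), articular zone replicate 4 (-1.52, adjusted p = 0.143) or mature zone replicate 3 (-1.003, adjusted p = 0.0821). It was kept without mature zone replicate 2 (-1.85, adjusted p = 0.00541). Over all alternatives the adjusted p of Mgp ranged from 7.17e-06 to 0.143.

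The chondrocyte markers, as given above, were also lower in every articular zone library. The 5 smooth muscle markers summed to 561, 587 and 764 CPM in the articular zone, against 760 and 397 CPM in the mature zone, a range that overlapped and was lowest in the library with the most Mgp. Most of this sum was Acta2, at 396, 527 and 658 CPM against 694 and 350. Rgs5, Myh11 and Cnn1, 3 of the 5 markers, had a higher level in every articular than in every mature zone library, and Tagln a lower one. Over all genes tested, 21.1% were higher and 17.6% lower in this way. Myh11 and Cnn1 had no count in the mature zone. None of the 5 smooth muscle markers passed in edgeR, and their median log2 fold change was 3.87 (3.84 with Myh11 and Cnn1 at their bound). Rgs5 was at 119, 22.3 and 65.7 CPM against 9.33 and 0.0713. The part of either cell type in the difference of Mgp was not tested.

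Ibsp and Spp1 encode acidic phosphoproteins of bone matrix that lie close together on chromosome 5: bone sialoprotein, which favours crystal formation, and osteopontin, which binds crystals and slows their growth. The stretch from the end of Ibsp to the start of Spp1 is 123649 bases. Ibsp (chr5:104299171-104311469, forward strand) was at 67.0, 117 and 547 CPM in the articular zone, against 576 and 335 CPM in the mature zone. Articular zone replicates 2 and 3 were below both mature zone libraries, and articular zone replicate 4 was between them. The log2 fold change was -0.90 (SE 0.85, 95% interval -2.96 to 1.16, edgeR adjusted p = 0.643). Without articular zone replicate 4 it was -2.30 (SE 0.40), with an adjusted p of 0.0916. With the replicate number as a block it was -2.31 and passed (edgeR adjusted p = 0.0306). No mature zone library used here carries the number 4, so under the block articular zone replicate 4 did not enter the zone difference. Over all alternatives the adjusted p ranged from 0.0306 to 0.864.

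Spp1 (chr5:104435118-104441050, forward strand) was at 30.7, 67.0 and 64.2 CPM in the articular zone, against 31.2 and 28.2 CPM in the mature zone. Articular zone replicates 3 and 4 stood above both mature zone libraries, while replicate 2 was level with them. At 0.86 (SE 0.41, 95% interval -0.09 to 1.81), the log2 fold change did not pass (edgeR adjusted p = 0.292). The predicted gene Gm42793 shares 18.8% of its exon bases on the same strand.

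As a ratio within each library, these neighbours did not overlap between zones, but articular zone replicate 4 lay nearer to the mature zone libraries than to the other articular ones. The log2 ratio of Spp1 to Ibsp (FPKM + 0.1) was 0.04, 0.26 and -2.02 in the articular zone, against -2.98 and -2.45 in the mature zone. Spp1 and Ibsp were at about the same FPKM in articular zone replicates 2 and 3, and Ibsp was ahead in the other 3 libraries. In CPM per kilobase of exon, Ibsp was ahead in all 5, with 32.4 against 18.6 in articular zone replicate 2 and 56.7 against 40.7 in articular zone replicate 3. The log2 ratio of Mgp to Spp1 was 4.68, 3.93 and 3.88 in the articular zone, against 5.85 and 6.96 in the mature zone, again without overlap. These ratios were described and not tested.

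The bases before the starts of Ibsp and Spp1 are shown because these neighbours differed in pattern across the libraries. They come from the same RefSeq table (GRCm38.p6, forward strand, 5′ to 3′), and the capitals mark matches to TATAAA or TGTGGT on either strand:
Ibsp, chr5:104299037-104299286: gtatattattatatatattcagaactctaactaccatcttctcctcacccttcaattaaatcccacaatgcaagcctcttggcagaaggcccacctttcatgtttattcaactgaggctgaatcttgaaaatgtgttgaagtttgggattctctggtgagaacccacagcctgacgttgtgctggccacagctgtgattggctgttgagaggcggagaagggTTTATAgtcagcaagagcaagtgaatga
Spp1, chr5:104434861-104435110: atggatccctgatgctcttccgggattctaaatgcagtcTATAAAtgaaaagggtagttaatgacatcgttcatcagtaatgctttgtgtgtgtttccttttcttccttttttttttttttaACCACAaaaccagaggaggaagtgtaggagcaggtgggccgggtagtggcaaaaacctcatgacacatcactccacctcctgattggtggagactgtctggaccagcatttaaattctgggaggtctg
In Ibsp the match is TATAAA on the reverse strand, read here as TTTATA, 28 bases before the RefSeq start. That start and the match both lie inside Ibsp as GENCODE places it, from 104299171. In Spp1 a forward TATAAA begins 211 bases before the start, and TGTGGT on the reverse strand, read as ACCACA, begins 128 bases before it. Another RefSeq window of Spp1, chr5:104435942-104436241, held neither match. The window of Ibsp held no TGTGGT, and the 2 kinds of match did not overlap each other here.

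Markers of bone cells and macrophages were set beside both genes. The 8 osteoblast and osteocyte markers summed to 117, 158 and 236 CPM in the articular zone, against 276 and 197 CPM in the mature zone. Ifitm5, an osteoblast gene of the list, had 294, 569 and 2157 counts against 2578 and 1847, the same order of articular zone libraries as Ibsp, whereas Sp7, the osterix gene, was at 63.5 to 102 CPM in all 5 libraries. Bglap and Bglap2, the osteocalcin genes of the list, had another order: Bglap was at 17.2, 11.1 and 12.9 CPM against 3.88 and 0.927, and Bglap2 at 15.7, 11.1 and 12.3 CPM against 3.48 and 0.642. Both were higher in every articular zone library and highest in replicate 2, where Ibsp was lowest. The osteocyte genes Mepe and Sost had at most 1 count per library. The 7 osteoclast markers found in the table summed to 575, 396 and 467 CPM against 409 and 190 CPM. Most of this sum was the protease gene Ctsk, at 466, 367 and 417 CPM against 350 and 186. Acp5 (38.9, 10.2 and 24.0 CPM against 31.9 and 0.428) and Mmp9 (65.0, 18.0 and 24.5 against 26.5 and 2.99) overlapped between zones. Both were highest in articular zone replicate 2. Of the 4 osteoclast markers tested, 2 did not overlap, each higher in the articular zone, a pattern of 21.1% of all genes tested. None of the 4 passed in edgeR.

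The 8 macrophage markers summed to 317, 21.4 and 128 CPM in the articular zone, against 43.8 and 24.5 CPM in the mature zone. Their 2 most abundant genes were Lyz2, a lysozyme gene, with 1853, 49 and 732 counts against 195 and 218, and Mrc1, the mannose receptor gene, with 1127, 151 and 452 against 0 and 1. Mrc1 was higher in the articular zone (edgeR adjusted p = 0.0170) and was the 1 marker of the list called, and Lyz2 overlapped between zones. Cd68, with 500, 65 and 216 counts against 6 and 42, did not overlap and did not pass (edgeR adjusted p = 0.219). Csf1r, the receptor of a macrophage growth factor, gave 423, 14 and 423 counts in the articular zone, against 353 and 0 counts in the mature zone. Articular zone replicate 3 had the fewest counts of Mrc1, Lyz2 and Csf1r among the articular zone libraries and 67.0 CPM of Spp1. The part of osteoblasts, osteoclasts, macrophages or any other cell type in the Ibsp and Spp1 values was not tested.

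**Figure D4:**
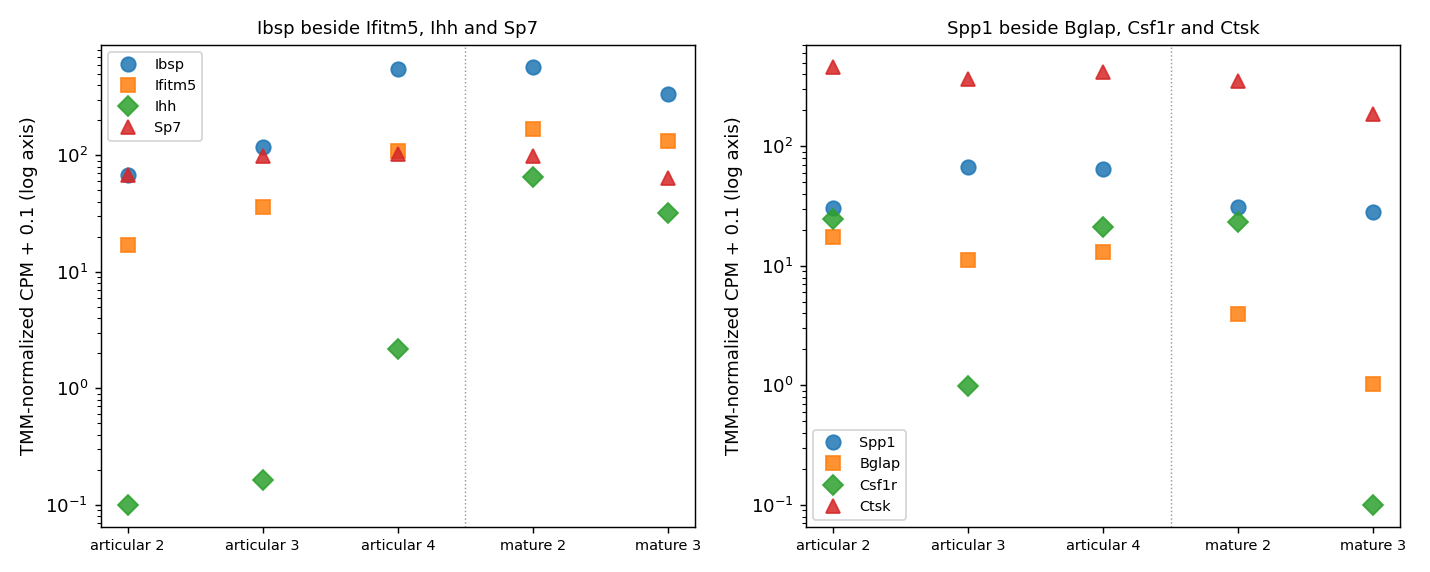
TMM-normalized CPM + 0.1 on a log axis for Ibsp with Ifitm5, Ihh and Sp7 (left) and for Spp1 with Bglap, Csf1r and Ctsk (right) in the 5 libraries along the horizontal axis. Ibsp and Ifitm5 are both highest in articular zone replicate 4 among the articular zone libraries, and Csf1r is near the bottom in articular zone replicate 3, where Spp1 is at 67.0 CPM.

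Levels of different genes were compared in FPKM, and then in CPM per kilobase of exon. In FPKM, Mgp ranked first in all 5 libraries, at 289.8 ± 39.8 FPKM in the articular zone (SD, n = 3) and 680.7 ± 186.4 in the mature zone (SD, n = 2), and Col10a1 ranked last in all 5. In the articular zone the order below Mgp was Alpl (56.7 ± 21.9 FPKM), Ibsp (36.7 ± 40.6), Spp1 (17.0 ± 6.50), Slc20a1 (13.6 ± 2.01), Ank (7.77 ± 0.513), Slc20a2 (3.59 ± 0.530), Enpp1 (3.45 ± 2.19) and Phospho1 (0.571 ± 0.367). The steps from Alpl to Ibsp, Ibsp to Spp1, Spp1 to Slc20a1 and Slc20a2 to Enpp1 were smaller than the spread between libraries. In the mature zone the order was Mgp, Ibsp (55.5 ± 28.1 FPKM), Alpl (42.0 ± 5.07), Slc20a1 (12.2 ± 6.41), Spp1 (7.94 ± 2.14), Phospho1 (6.27 ± 0.463), Ank (3.19 ± 0.366), Slc20a2 (2.85 ± 0.305), Enpp1 (2.15 ± 0.986) and Col10a1 (1.09 ± 1.36). There, the steps from Mgp to Ibsp, from Alpl to Slc20a1 and from Phospho1 to Ank were larger than the spread, and the other neighbours did not differ beyond it.

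Some of these ranks turned in CPM per kilobase, which was computed from the counts and the GENCODE exon length. In articular zone replicate 4, Ibsp (264 CPM per kilobase) was then above Mgp (237). In mature zone replicate 3, Col10a1 (8.82) was above Slc20a2 (5.25), Enpp1 (3.12) and Phospho1 (1.76), and Phospho1 took the last place by the mean over all libraries. The mature zone mean of Phospho1 was 1.14 CPM per kilobase against 11.6 for Ank, the reverse of their order in FPKM.

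Of 13 other phosphate and pyrophosphate genes, 10 could be tested, 1 was lower in the articular zone (1.85% over all genes) and none was higher, with a median log2 fold change of -1.08 against 0.07 over all genes. The gene called was Smpd3, neutral sphingomyelinase 2, an enzyme needed for normal skeletal mineralization. It gave 362, 1770 and 2520 counts in the articular zone, against 12238 and 13578 counts in the mature zone. The mature zone libraries were alike and far above the articular zone, where replicate 2 was lowest. Smpd3 was 10.2-fold lower in the articular zone (log2 fold change -3.36, SE 0.63, edgeR adjusted p = 0.0341). Its call was kept without articular zone replicate 2 (adjusted p = 0.0117) and lost without articular zone replicate 3 (0.120) or 4 (0.122) or mature zone replicate 2 (0.0877) or 3 (0.153). It was also lost with no low count filter (0.173) and with 10 counts required in every library (0.0549).

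Below the threshold, and named after their values were seen, were Nt5e, the ectonucleotidase CD73 (-1.06, SE 0.24, edgeR adjusted p = 0.0635), and Abcc6, a transporter behind cellular ATP release. Abcc6 had 44, 40 and 2 counts in the articular and none in the mature zone. Against a floor of 3 counts over the mature zone it was at least 15.8-fold higher in the articular zone, which covers counting error only, and it did not pass (adjusted p = 0.222). The kidney and gut phosphate transporters Slc34a1, Slc34a2 and Slc34a3 had no count in any library.

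The other SIBLING genes, the family of Ibsp and Spp1, were nearly absent. Dmp1, an osteocyte matrix protein gene, had 9 counts in articular zone replicate 3 and none elsewhere. Dspp, best known from dentin, had 1 count in articular zone replicate 4, and Mepe had none. Phex, the peptidase that cleaves SIBLING peptides, gave 0, 1 and 6 counts in the articular zone, against 20 and 7 in the mature zone. It did not reach the count minimum for testing. Fam20c, the kinase that phosphorylates these proteins, was the only one of these 5 genes tested, with 203, 181 and 361 counts against 268 and 169 (log2 fold change -0.11, SE 0.58, edgeR adjusted p = 0.950). Its zones overlapped.

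None of the 10 genes of Gla proteins and the vitamin K cycle, which make or activate proteins like Mgp, passed in edgeR. At an unadjusted p under 0.05 there were 7, where 20.1% of all genes were, DESeq2 called 3 higher and 2 lower (1802 of all 13119 genes), limma-voom called 0, and the median log2 fold change was 0.15. The most abundant were Calu, calumenin, an inhibitor of the carboxylase (-0.58, SE 0.16, adjusted p = 0.0979), and Vkorc1, the vitamin K reductase (-0.52, SE 0.21, adjusted p = 0.210). The osteocalcin genes Bglap and Bglap2 (299, 175 and 257 against 59 and 13 counts for Bglap) and the cartilage gene Ucma (31, 48 and 123 against 212 and 570 counts) were named after their values were seen. Bglap was higher and Ucma lower in every articular than in every mature zone library, with edgeR adjusted p of 0.185 and 0.0981, and both passed without mature zone replicate 2, in DESeq2 and with limma on log2(FPKM + 1). Ucma also passed with 10 counts required in every library. Reads of Bglap and Bglap2, near-identical copies, cannot be assigned with certainty.

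Of 14 regulators and partners of hypertrophy, 13 were tested, 2 were lower and none higher, where 1.85% of all genes were lower, with a median log2 fold change of -0.68 against 0.07. Pth1r, through which parathyroid hormone-related protein delays hypertrophy, was at 203, 323 and 270 CPM in the articular zone, against 806 and 1079 CPM in the mature zone. Panx3, a pannexin channel of hypertrophic chondrocytes and osteoblasts, was at 655, 1265 and 1131 CPM against 3180 and 4673 CPM. Both were separated by zone (Pth1r -1.83, SE 0.24, edgeR adjusted p = 0.0110, and Panx3 -1.95, SE 0.29, adjusted p = 0.0164). Pth1r lost its call without articular zone replicate 4 (adjusted p = 0.0901). Panx3 lost it without articular zone replicate 3 (0.0577) or 4 (0.106) or mature zone replicate 3 (0.0577).

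Runx2, Ihh and Mmp13 of that list were named after their values were seen. Runx2, the transcription factor known to act on Col10a1, was at 209, 226 and 186 CPM in the articular zone, against 170 and 215 CPM in the mature zone (log2 fold change 0.11, SE 0.20, edgeR adjusted p = 0.845). Ihh, the signal of prehypertrophic chondrocytes, gave 0, 1 and 41 counts in the articular zone, against 996 and 451 in the mature zone (adjusted p = 0.0736). Mmp13, a collagenase known from hypertrophic cartilage and bone, ran the other way, with 107, 103 and 320 counts in the articular zone, against 4 and 0 in the mature zone (adjusted p = 0.0996). Neither Ihh nor Mmp13 overlapped between zones. Ihh passed without articular zone replicate 4 and with limma on log2(FPKM + 1) and log2(FPKM + 0.1), and Mmp13 passed without mature zone replicate 2 and in DESeq2.

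Among 9 receptor genes for osteopontin and bone sialoprotein, all tested, 1 was higher (1.14% over all genes) and none lower, and the median log2 fold change was 0.47. Itgb5, the integrin chain that pairs with alpha v, was at 282, 244 and 243 CPM in the articular zone, against 131 and 72.9 CPM in the mature zone. Every articular zone library was above both mature zone libraries (log2 fold change 1.33, SE 0.28, edgeR adjusted p = 0.0489). The call was lost without articular zone replicate 2 (adjusted p = 0.165), 3 (0.137) or 4 (0.173), and with the replicate number as a block (0.0554). With only 1 mature zone library left, the log2 fold change was 1.81 without mature zone replicate 2 and 0.97 without mature zone replicate 3. From these fits the size alone is given, and whether the call was kept is not read from them.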

How the data were processed

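RNA of the captured zones was sequenced by the authors from poly(A)-selected, single-end libraries, trimmed with Trimmomatic 0.32 and mapped to mm10 with SHRiMP. How reads were counted per gene, and with which strand setting, is not stated in the sources used here. The counts, as deposited, are raw read numbers that the authors did not normalize. The deposited FPKM were made by the authors per gene and library for 22462 symbols, with 0.1 as the lowest value. A deposited table of the authors' DESeq results (normalized means, fold changes and p-values) was not used.

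Counts were tested with edgeR 4.0.16 in R 4.3.3 (TMM, genes reaching 10 counts in 2 or more libraries, glmQLFit robust, glmQLFTest, zone alone, 3 residual degrees of freedom, common coefficient of variation 0.680, Benjamini-Hochberg adjustment over 13119 genes). The SE is the log2 fold change over the root of F. The edgeR fit was checked on simulated counts. Alternatives used limma 3.58.1, DESeq2 1.42.0, other normalizations, filters, pseudocounts, a threshold of 0.01, the replicate number as a block, and each library left out in turn. CPM per kilobase was added after seeing the data.

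The 10 genes and the lists were chosen with earlier results of these data known. Besides the 10, the rule names each called gene of a list or, with none called, its 2 most abundant, the SIBLING list, the 2 most abundant markers of a cell type, and the 5 genes closest to Col10a1 and to Spp1. Ihh, Runx2, Mmp13, Nt5e, Abcc6, the Slc34a genes, Bglap, Bglap2, Ucma, Csf1r, Cd68, Acp5, Matn1, Prg4, Rgs5, Tagln, Myh11, Cnn1, Mepe and Sost as markers fall outside it and were named after their values were seen. Gene positions are from GENCODE and promoters from RefSeq, both on GRCm38. Figures were drawn with matplotlib 3.10.9.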

Additional observations from a re-analysis of the deposited data

How the results depend on the processing

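The number of genes called moved from 393 to 593 with no low count filter, to 1802 in DESeq2 (1036 higher and 766 lower in the articular zone), to 32 at an adjusted p under 0.01, and to 0 with limma on log2(FPKM + 1) with no filter. Leaving out 1 library gave 13 to 1289 calls, lowest without articular zone replicate 4 and highest without mature zone replicate 2. The higher and lower calls of edgeR (150 and 243) became 86 and 325 in limma-voom, 275 and 201 with limma on log2(FPKM + 1), and, without mature zone replicate 2, 843 and 446.

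Among the 10 genes, 1 was called by edgeR, 3 by DESeq2 (Col10a1, Ank and Mgp, the first at an adjusted p of 0.00151), 2 by limma on log2(FPKM + 1) and on log2(FPKM + 0.1) (Mgp and Phospho1), 0 by limma on log2(FPKM + 1) with no filter and 0 at an adjusted p under 0.01. Leaving out 1 library gave 0 to 2. The sign turned for Alpl without articular zone replicate 3 (range over libraries left out -0.089 to 0.46), for Enpp1 without articular zone replicate 3 (-0.0088) or mature zone replicate 2 (-0.0086; range up to 1.14), for Slc20a1 without articular zone replicate 3 (-0.024), articular zone replicate 4 (-0.030) or mature zone replicate 3 (range -0.36 to 0.52), and for Slc20a2 without mature zone replicate 2 (range -0.019 to 0.32). The cause of these changes was not tested.

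The zones share replicate numbers 2 and 3, but no label says that a number marks a shared animal or day. Whether the numbers pair the samples cannot be told from 2 pairs (r = 0.152 across 13119 genes, which are not independent replicates). With the replicate block, 226 genes were called on 5 libraries and 209 on the 4 with shared numbers. In the block on 5 libraries, articular zone replicate 4 stands alone under its number and does not enter the zone difference. Of the 10 genes, 2 passed in each block: Mgp, and Ibsp at -2.31 (adjusted p = 0.0306 and 0.0378). Itgb5 missed the threshold under the block (0.0554 and 0.0600), and Ihh passed it. In CPM per kilobase of exon in place of FPKM, the log2 ratio of Mgp to Spp1 averaged 2.86 in the articular and 5.08 in the mature zone (4.16 and 6.40 in FPKM), and that of Enpp1 to Ank -3.09 and -2.41 (-1.37 and -0.62). That of Spp1 to Ibsp averaged -1.34 and -3.56 (-0.57 and -2.72 in FPKM). Low counts limit Col10a1 and Phospho1 most, which could not be fitted with 10 counts required in every library, and 2 mature zone libraries limit every gene.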

Other observations

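The tested genes whose pattern over the 5 libraries was closest to that of Col10a1 were Ninj2, Ccrl2, Asgr2, Tlr6 and Fam101a. The measure was the root mean square difference of mean-centred log2 CPM with a prior count of 2, which was 0.603 for Ninj2, an adhesion protein gene, and 0.784 for Fam101a. Ninj2 gave 0, 0 and 1 counts in the articular zone, against 14 and 242 in the mature zone. Tlr6, a Toll-like receptor gene, had 5, 19 and 20 counts against 116 and 333. As with Col10a1, most counts of these 5 genes were in mature zone replicate 3, and none of them passed the edgeR test.

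The genes closest to Spp1 were Socs6, Ifitm1, Slc39a10, Pop4 and Tubg1, at 0.111 to 0.156 on the same measure. Socs6, a suppressor of cytokine signaling, gave 108, 208 and 210 counts in the articular zone, against 85 and 69 in the mature zone. Slc39a10, a zinc transporter gene, had 260, 439 and 624 counts against 255 and 171. Within the 10 genes themselves, the closest pair was Alpl and Spp1 at 0.362, followed by Alpl and Slc20a1 at 0.398. The measure is also small between genes that each vary little over the libraries, so a small value alone shows no shared pattern. With 5 libraries these distances are descriptions only.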
